A study of Homo sapiens with 12 samples.

Results

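The response of vector-transduced HEK293 cells to interferon gamma (IFN-gamma) was described across all genes of the deposited table. It was taken as 6 of the series' 12 libraries, by their labels: 3 from vector cells without IFN-gamma (libraries 1, 2 and 3) and 3 from vector cells with it (7, 8 and 9). HEK293 is an established human embryonic kidney line. Cells without IFN-gamma were transduced with a Flag vector on day 1 and harvested on day 4, and those with it had the same vector and days and received the cytokine on day 2. The other 6 libraries came from cells that carried the construct A197-270 in place of the vector, 3 without and 3 with IFN-gamma, and served here to estimate the spread of each gene and to test where the response differed. What A197-270 encodes, the dose of IFN-gamma and whether replicates came from separate cultures are not stated in the labels, and a p-value here therefore covers only sample-to-sample spread, possibly of technical origin.

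IFN-gamma is a cytokine of lymphocytes that binds a receptor made of IFNGR1 and IFNGR2. The receptor's kinases JAK1 and JAK2 activate proteins of the STAT family, which bind GAS elements in promoters and switch on a first set of genes, among them the transcription factor IRF1. IRF1 and complexes that hold IRF9 then act on ISRE elements of further genes, which serve antigen presentation, chemokine release and defence within the cell.

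Values are normalized counts, that is, reads per gene after division by a factor of the library. The 6 vector libraries held from 31417431 to 68558742 reads, and mitochondrially encoded genes took 0.355% to 0.480% of them without IFN-gamma and 0.405% to 0.475% with it. Genes whose mean over the 12 libraries reached 10 were tested with limma on log2(value + 1), and a gene was called at a Benjamini-Hochberg adjusted p under 0.05. Fold changes come from that scale, so those of low genes are understated. IFNG, the gene of the cytokine itself, had 0 reads in all 6 libraries. Of 14 markers of other cell types, UMOD and HBB were at 0 in the 6 libraries and PTPRC, CD3E and VWF had at most 3 reads over a group. CD68, a lysosomal protein gene used as a macrophage marker, rose from 296 ± 27.3 normalized counts without to 798 ± 204 with IFN-gamma (mean ± SD, n = 3, as for all such pairs; log2 1.40, limma adjusted p = 0.000283), and the fibroblast collagen gene COL3A1 fell (log2 -0.40, lost without library 1, 2, 7 or 9). The summed level of the 14 markers was 1722 to 1909 without and 2316 to 2760 with IFN-gamma, and the part of such cells in the results was not tested.

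IFN-gamma raised a small set of genes by large factors and shifted many more by little. Higher calls by limma numbered 1029 of 14049 tested genes (7.32%) and lower calls 1376 (9.79%), and the median log2 fold change of all of them was -0.01. The 3 libraries with IFN-gamma did not overlap the 3 without for 4993 genes (35.5%), called or not. Only 131 genes (0.932%) were called and at least 2-fold higher, and 5 (0.0356%) called and at least 2-fold lower. Of the called genes, 80.3% of those that rose and 97.7% of those that fell changed by less than 1.5-fold. Scaling to equal library totals turned this into 1526 higher and 830 lower genes, so small changes take their direction in part from the scaling. Of the 131 genes, 79 belonged to the lists of immune genes described here. Those lists were chosen with earlier results of these data known, so this count is a description and no test of the kind of response. In bulk RNA, fewer responding cells and less RNA per cell cannot be told apart.

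**Figure D1:**
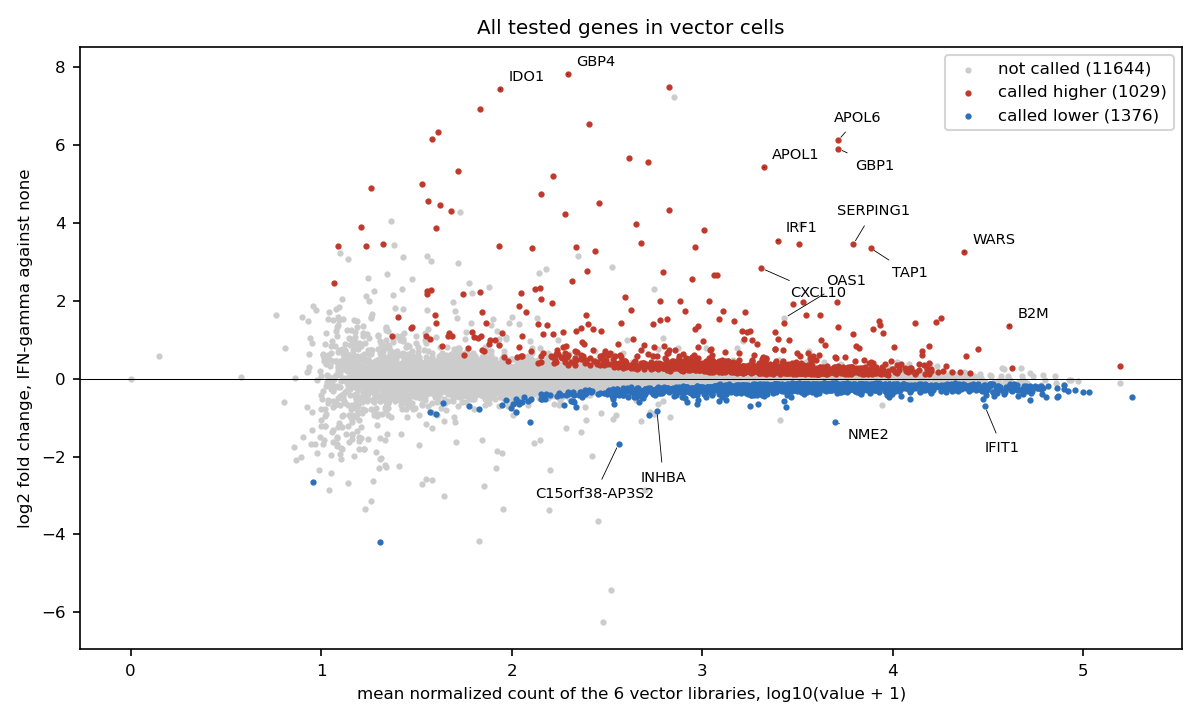
Log2 fold change with IFN-gamma in vector cells (y axis) against the mean normalized count of the 6 libraries (x axis, log10 of value + 1), 1 point per tested gene, coloured by the limma call. Called rises reach a log2 of 7.82 (GBP4), while nearly all called falls lie just below 0.

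Promoter windows were searched for both elements, GAS as TTC, any 3 bases and GAA, and ISRE as TTTC, any 2 bases and TTTC, or its reverse complement GAAA, any 2 bases and GAAA. Overlapping matches were allowed. The windows run from 250 bases before to 50 after a gene's start (RefSeq, GRCh38.p14). Of the 35116 windows of that table, 7.66% held a GAS and 3.57% an ISRE. Among the genes called at least 2-fold higher, 88 of 131 had a window, under the 80% needed to speak for the whole set. Of their 123 windows 21.1% held a GAS and 35% an ISRE, against 6.18% and 2.93% of the windows of all tested genes and 5.76% and 1.98% of those of genes called lower. Matches to these letters are a description of the windows and do not show binding.

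The 6 windows shown belong to genes of groups described below, with GAS and ISRE letters in capitals. All 6 hold a match, while 46.3% of the windows of genes called at least 2-fold higher held either element. The windows of PSMB9, HLA-B and UBD, which also rose, hold neither. The window of IRF1 (chr5:132490724-132491023 on the minus strand) holds a GAS that starts 124 bases before the gene start and no ISRE by these letters. Those of GBP1 (chr1:89065159-89065458 on the minus strand), a defence GTPase, and CXCL10 (chr4:76023448-76023747 on the minus strand), a chemokine, hold 1 ISRE each, 127 and 221 bases before. The first of 2 windows of TAP1 (chr6:32853655-32853954 on the minus strand), the peptide transporter gene, holds 2 overlapping ISREs, 134 and 128 bases before. In the window of CD274 (chr9:5450292-5450591 on the plus strand), which encodes the ligand PD-L1, 2 overlapping ISREs lie 208 and 202 bases before the start and a GAS 125 bases before. IFIT1 (chr10:89392373-89392672 on the plus strand), a sensor of foreign RNA caps, has ISREs 116 and 103 bases before and no GAS, and is shown because it fell.
IRF1: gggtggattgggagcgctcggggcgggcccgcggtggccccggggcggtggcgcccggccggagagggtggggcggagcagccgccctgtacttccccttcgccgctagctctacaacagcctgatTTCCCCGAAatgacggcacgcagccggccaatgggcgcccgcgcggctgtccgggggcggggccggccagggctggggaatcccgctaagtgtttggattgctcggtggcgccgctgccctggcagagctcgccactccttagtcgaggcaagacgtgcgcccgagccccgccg
GBP1: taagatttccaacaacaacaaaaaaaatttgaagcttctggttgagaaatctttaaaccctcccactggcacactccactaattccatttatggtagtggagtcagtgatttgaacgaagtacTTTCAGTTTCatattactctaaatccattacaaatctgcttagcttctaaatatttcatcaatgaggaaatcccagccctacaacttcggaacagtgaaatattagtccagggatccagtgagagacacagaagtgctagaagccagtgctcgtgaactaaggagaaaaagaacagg
TAP1: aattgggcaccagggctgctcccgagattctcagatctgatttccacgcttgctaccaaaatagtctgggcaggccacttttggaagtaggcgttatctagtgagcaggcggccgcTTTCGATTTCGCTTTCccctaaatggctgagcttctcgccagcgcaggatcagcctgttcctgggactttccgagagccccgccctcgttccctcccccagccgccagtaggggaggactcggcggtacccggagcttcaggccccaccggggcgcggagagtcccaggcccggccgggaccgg
CXCL10: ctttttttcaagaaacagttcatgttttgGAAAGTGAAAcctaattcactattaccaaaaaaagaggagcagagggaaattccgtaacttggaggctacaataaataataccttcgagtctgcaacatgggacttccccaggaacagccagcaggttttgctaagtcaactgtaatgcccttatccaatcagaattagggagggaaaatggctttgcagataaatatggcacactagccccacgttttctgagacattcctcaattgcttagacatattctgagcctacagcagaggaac
CD274: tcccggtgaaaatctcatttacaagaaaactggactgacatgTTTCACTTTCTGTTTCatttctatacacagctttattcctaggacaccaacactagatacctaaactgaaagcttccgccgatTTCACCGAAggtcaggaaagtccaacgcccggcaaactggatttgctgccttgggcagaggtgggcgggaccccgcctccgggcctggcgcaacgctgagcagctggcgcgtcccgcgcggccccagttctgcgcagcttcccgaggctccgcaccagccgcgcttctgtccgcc
IFIT1: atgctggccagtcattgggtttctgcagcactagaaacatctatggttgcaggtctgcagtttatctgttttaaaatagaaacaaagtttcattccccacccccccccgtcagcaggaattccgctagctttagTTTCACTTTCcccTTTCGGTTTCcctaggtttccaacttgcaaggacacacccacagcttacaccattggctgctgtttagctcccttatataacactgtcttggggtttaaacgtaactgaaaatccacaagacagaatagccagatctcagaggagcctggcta

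Of 12 genes of the receptors and their signalling 4 rose and 0 fell, with a median log2 fold change of 0.06. Counts of this and every later list are to be read beside the shares over all tested genes, 7.32% called higher and 9.79% called lower. The 4 were STAT2, STAT3, JAK2 and the type I interferon receptor chain IFNAR2. IFNGR1 (ENSG00000027697.13, chromosome 6, 137197484 to 137219449 in hg38), the ligand-binding chain, had 3346, 3415 and 3342 normalized counts in vector libraries 1, 2 and 3 and 3252, 3406 and 3508 in libraries 7, 8 and 9. Those ranges overlapped, as did those of IFNGR2, the second chain, at 2676 ± 96.1 without and 2745 ± 55.1 with IFN-gamma (limma adjusted p = 0.663). JAK1 (log2 -0.08), TYK2 (0.04), IFNAR1 (-0.08), STAT6 (-0.07) and the low gene STAT5A (0.73) were not called either.

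STAT2 (ENSG00000170581.13, chromosome 12, 56341597 to 56360155), part of the complex with IRF9 that reads ISREs, went from 4491, 4414 and 4545 to 12977, 12325 and 12102 normalized counts. All libraries with IFN-gamma were above all without, a 2.78-fold rise (log2 1.47 ± 0.0396 SE, limma adjusted p = 2.79e-12). STAT3, which transmits signals of the interleukin 6 family, rose 1.78-fold (log2 0.83 ± 0.0356 SE, adjusted p = 5.05e-10) and JAK2 1.49-fold (log2 0.57 ± 0.076 SE, adjusted p = 0.000199), both without overlap. IFNAR2 rose from 1744 ± 31.5 to 2081 ± 62.9 (log2 0.25, adjusted p = 0.000897). The annotated gene AP000295.1 covers the whole of IFNAR2 on the same strand, so reads of the pair may have been shared. AP000295.1 itself was called lower, as given below, and whether reads moved between the pair was not tested.

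**Figure D2:**
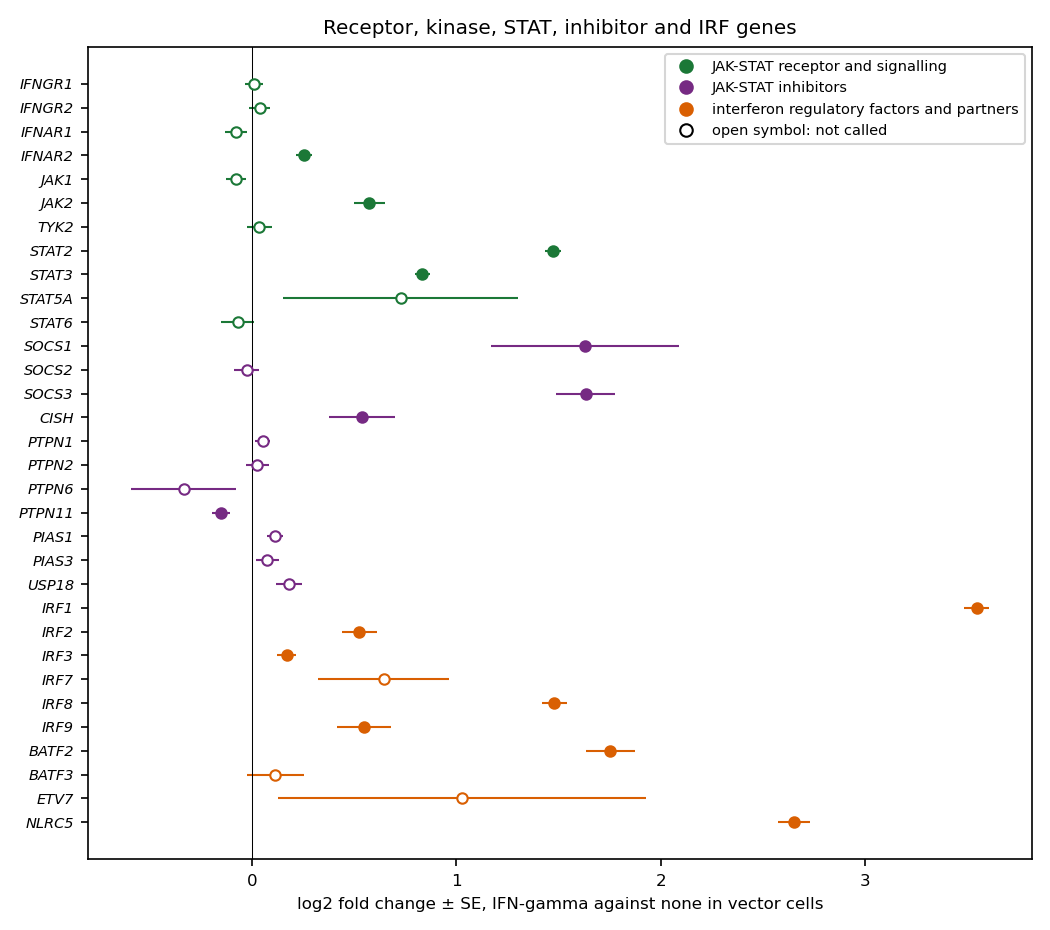
Log2 fold change with IFN-gamma in vector cells (x axis, points with SE bars) for the members shown of the receptor and signalling, inhibitor and IRF lists. Filled points were called by limma, with IRF1 at 3.55, NLRC5 at 2.65 and the receptor chains close to 0.

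Feedback inhibitors of the pathway rose in part. Of 11 members 3 rose, 1 fell and 7 did not pass, with a median of 0.08, and 1 rose without library 1, 2, 7 or 9. The shares of all tested genes were 7.32% called higher and 9.79% called lower. SOCS1 (ENSG00000185338.4, chromosome 16, 11254405 to 11256200), which blocks JAK kinases, had 13.2, 21 and 19.99 normalized counts without and 81.3, 48.9 and 46.4 with IFN-gamma, and SOCS3 had 116, 102 and 139 and 393, 361 and 349. Neither gene overlapped between groups, and both had a log2 of 1.63, with an SE of 0.458 for SOCS1 and 0.142 for SOCS3 (limma adjusted p = 0.0256 and 2.82e-06). The call on SOCS1 was lost without library 1, 2, 7 or 9, where adjusted p ran from 0.0502 to 0.101, and the gene lies wholly within RMI2 on the other strand. CISH, another SOCS family member, rose by a log2 of 0.54 (adjusted p = 0.0343, lost without library 1, 2, 3, 7 or 9), and the phosphatase gene PTPN11 fell by a log2 of -0.15 (adjusted p = 0.0274, lost without 2, 3, 7 or 9). USP18 (0.18), which restrains type I interferon signalling, SOCS2 (-0.03), PTPN1 (0.05), PTPN2 (0.03), PTPN6 (-0.33), PIAS1 (0.11) and PIAS3 (0.08) were not called. USP18 passed with the 6 vector libraries alone (adjusted p = 0.0195), DESeq2 (0.0413), equal totals (0.0305) and quantile normalization (0.0461). PIAS1 passed with the same 4 (0.0122 to 0.0494) and with edgeR (0.0411) and TMM scaling (0.0453).

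Among the interferon regulatory factors and their partners 7 of 11 tested members rose and 0 fell, with a median of 0.64. IRF1 (ENSG00000125347.13, chromosome 5, 132481609 to 132490798) had 408, 389.5 and 374 normalized counts without and 4744, 4626 and 4350.1 with IFN-gamma. This was an 11.7-fold rise (log2 3.55 ± 0.0603 SE, limma adjusted p = 2.1e-14). Next came NLRC5 (ENSG00000140853.15, chromosome 16, 56989485 to 57083531), the activator of MHC class I genes, from 309, 343 and 293 to 2116, 1849 and 1989 (log2 2.65 ± 0.0775 SE, adjusted p = 8.18e-12). Both genes separated fully between the groups, and IRF1 overlaps C5orf56 on the other strand.

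BATF2, a leucine zipper partner of IRF1, rose 3.37-fold (log2 1.75, limma adjusted p = 1.82e-07) and IRF8, a myeloid factor that HEK293 cells also transcribed, rose 2.79-fold (log2 1.48, adjusted p = 4.61e-10). IRF8 had 740.5, 784 and 806 normalized counts without and 2170.3, 2098 and 2234 with IFN-gamma. IRF9, the DNA-binding part of the complex with STAT2, rose by a log2 of 0.55 (adjusted p = 0.0118), IRF2, an antagonist of IRF1, by 0.53 and IRF3, a factor of RNA and DNA sensing, by 0.17 (lost without library 1, 2, 7 or 9). The IRF9 call was lost without library 9 (log2 0.42, adjusted p = 0.0637), and IRF9 lies within AL136295.5 on the same strand, so that reads may be shared. IRF7 (0.64, adjusted p = 0.188), ETV7 (1.03) and BATF3 (0.11) were not called, but IRF7 was with the 6 vector libraries alone (adjusted p = 0.00302). IRF5 had 0 reads, and IRF4 and the MHC class II activator CIITA were too low to test. CIITA had 6.02, 6.99 and 1.18 without and 7.2, 7.52 and 15.9 with IFN-gamma, lowest in library 3 and highest in 9.

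GTPases and apolipoprotein L genes of defence within the cell had the largest median of the lists, 5.43 against -0.01 over all genes. Of 14 such genes 11 were tested, and these 11 rose. GBP1 (ENSG00000117228.9, chromosome 1, 89052319 to 89065360), a guanylate-binding GTPase that coats bacteria, had 189, 165 and 155 normalized counts without and 10789, 10021 and 9769.8 with IFN-gamma. APOL6, an apolipoprotein L family gene (ENSG00000221963.5, chromosome 22, 35648395 to 35668409), went from 175, 121 and 145 to 10888, 9858 and 9787. Every library with IFN-gamma was far above every one without for both genes, and their folds were 59.9 and 69.5 (log2 5.90 ± 0.131 SE and 6.12 ± 0.124 SE, limma adjusted p = 2.98e-13 and 1.01e-13).

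GBP3, GBP4 and GBP5, of the same family, started from few reads. GBP4 (ENSG00000162654.8, chromosome 1, 89181148 to 89198932) had 0, 0 and 4.11 and then 443, 368 and 355, the largest called rise of all tested genes (log2 7.82 ± 0.524 SE, limma adjusted p = 1.34e-07). GBP5 went from 0, 12 and 10.6 to 547, 491 and 455 (log2 6.55) and GBP3 from 8.43, 23 and 16.5 to 914, 743 and 748 (log2 5.66), again with no overlap. APOL1, whose product kills trypanosomes, rose from 95.1 ± 8.88 to 4119 ± 198 (log2 5.43 ± 0.222 SE, adjusted p = 3.2e-10), and APOL3 had a log2 of 5.21. RNF213, the weakest of the list, was chosen after its values were seen and still rose from 8251 ± 1247 to 11312 ± 201 (log2 0.47). GBP6 and GBP7 were untested, with 0 reads without IFN-gamma and 15 and 8 reads with it.

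Apart from this list, the 12 largest rises held IDO1, UBD, RARRES3, BCL2L14 and the complement gene CFB. IDO1 (ENSG00000131203.12, chromosome 8, 39902275 to 39928444), which breaks down tryptophan, had 0 reads in libraries 1, 2 and 3 and 183, 173 and 159.9 normalized counts in 7, 8 and 9, at least 202.5-fold higher against a floor of 3 reads over the group. UBD, the ubiquitin-like protein FAT10 (ENSG00000213886.3, chromosome 6, 29555515 to 29559925), was also at 0 without IFN-gamma and had 65.8, 206 and 129 with it, at least 157-fold higher. Library 7 held the lowest UBD value and 8 the highest, and most of the gene lies within GABBR1 on the same strand. RARRES3, a phospholipase and tumour suppressor gene (ENSG00000133321.10, chromosome 11, 63536809 to 63546462), had 24.1, 19.98 and 18.2 and 1024, 1030.2 and 1007 (log2 5.56 ± 0.17 SE, limma adjusted p = 1.37e-11). BCL2L14, a BCL2 family gene, had 0, 0 and 13.5 without and 99.8, 99 and 94 with IFN-gamma, with the groups apart (log2 5.34 ± 0.968 SE, adjusted p = 0.00204).

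**Figure D3:**
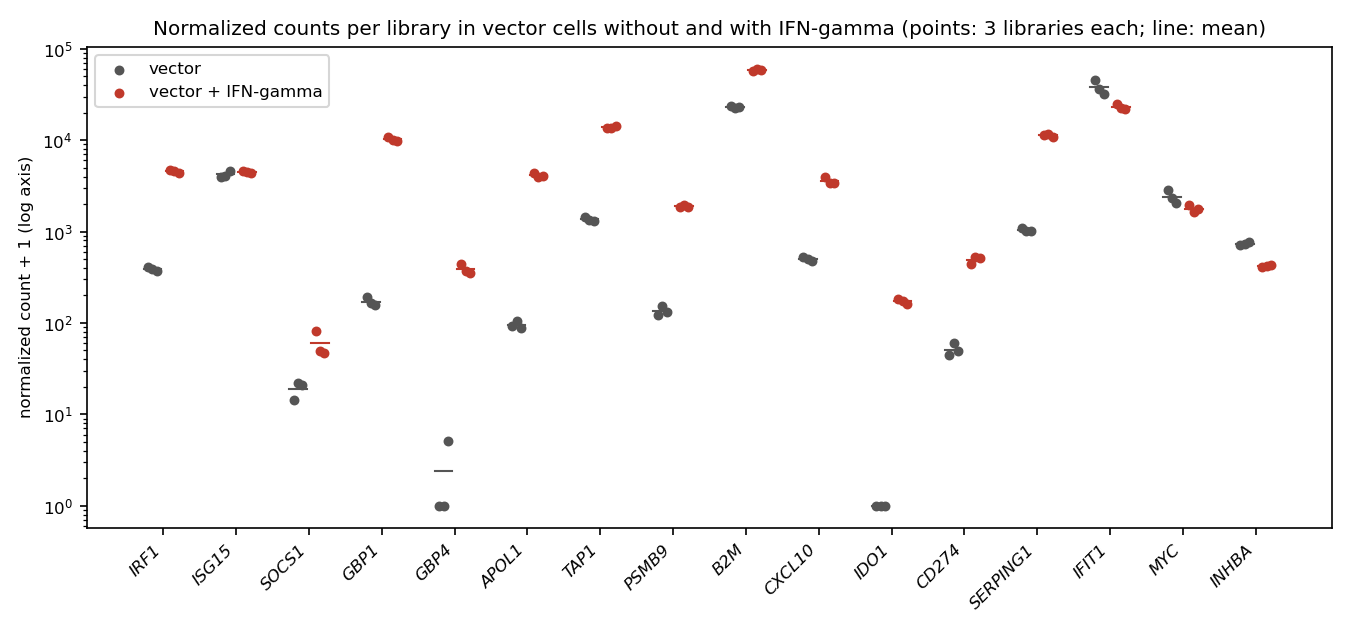
Normalized counts + 1 (log axis) in each of the 3 vector libraries without (grey) and 3 with IFN-gamma (red), with lines at the means. ISG15 is the only gene of the 16 whose groups overlap, and IFIT1, MYC and INHBA are those that fell.

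In MHC class I presentation 13 of 17 genes rose and 0 fell, with a median of 1.45. TAP1 (ENSG00000168394.10, chromosome 6, 32845209 to 32853978), which carries peptides into the ER, had 1447, 1352 and 1304 normalized counts without and 13727, 13692 and 14418 with IFN-gamma. B2M (ENSG00000166710.17, chromosome 15, 44711487 to 44718877), the light chain of all class I molecules, went from 23373, 22508 and 22833 to 56664, 60366 and 59067. The libraries of both groups lay far apart for each gene, with folds of 10.2 and 2.56 (log2 3.35 ± 0.0635 SE and 1.36 ± 0.0471 SE, limma adjusted p = 4.8e-14 and 6.43e-11). HLA-B, a class I heavy chain, rose from 9115 ± 281 to 26635 ± 987 (log2 1.55), a value that is uncertain because HLA genes share sequence. The peptide trimming enzyme gene ERAP1 rose 3.35-fold (log2 1.75), and TAPBPL, a peptide editor gene at 3.37 ± 2.93 normalized counts without IFN-gamma, had a log2 of 3.45, a call lost without library 2 or 7. The general ER chaperone genes CALR (-0.04), CANX (-0.10) and PDIA3 (-0.08), chosen after their values were seen, were not called, and neither was HLA-G, with 8.82 and 49.0 normalized counts.

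The 5 genes of the immunoproteasome and its PA28 cap all rose, with a median of 1.15. PSMB9 (ENSG00000240065.7, chromosome 6, 32844136 to 32859585), an inducible catalytic subunit, had 122, 151 and 129 normalized counts without and 1872, 1933 and 1878 with IFN-gamma. PSMB8, another such subunit, had 6.02, 0 and 5.29 and 89.5, 89 and 57.4, and PSMB10, the third, 114, 116 and 72.3 and 182, 194 and 299. Their groups did not overlap, with log2 values of 3.82, 4.46 and 1.15 (limma adjusted p = 9.94e-11, 0.000352 and 0.00253). PSME1 and PSME2, the PA28 subunits, rose 1.81-fold and 1.71-fold (log2 0.85 and 0.77, adjusted p = 4.12e-08 and 1.26e-06). In the annotation PSMB9 spans TAP1 and part of PSMB8 on the other strand, and reads of these 3 genes may not be fully separated. PSMB10 shares 1516 of its 2586 bases with AC040162.1 on the same strand, so reads of that pair may be shared too.

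Subunits of the constitutive proteasome moved little: 2 of 32 rose, 10 fell and 20 did not pass, with a median of -0.07, and under equal totals 5 rose and 5 fell. Over all tested genes 7.32% were called higher and 9.79% lower. PSMB7, the subunit that PSMB10 replaces, fell from 3883 ± 305 to 3103 ± 148 normalized counts (log2 -0.32 ± 0.0557 SE, limma adjusted p = 0.00151), and the ATPase gene PSMC1 fell by 0.24 on the log2 scale. The ring subunit genes PSMA3 (log2 0.30) and PSMA5 (0.29) were the 2 that rose. The count of falls was 6 without library 1 and 5 without 2 or 7.

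In MHC class II presentation 4 of 17 tested genes rose and 0 fell, with a median of 0.22. CTSS, the cathepsin that trims the invariant chain, had 53, 54.9 and 31.2 normalized counts without and 283, 188 and 228 with IFN-gamma (log2 2.33 ± 0.236 SE, limma adjusted p = 1.51e-05). The groups did not overlap, as for IFI30 (log2 0.70), a lysosomal thiol reductase gene that AC007192.1 covers on the same strand. HLA-DRA (0.55) and HLA-DPA1 (0.22), alpha chain genes, completed the rises. CD74, the invariant chain, had 15.7, 5.99 and 11.2 and 46.3, 18.8 and 14.7, overlapping ranges, and was not called (log2 1.12, adjusted p = 0.135).

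Of 11 tested chemokine genes 5 rose and 0 fell, with a median of 0.27, among them CXCL9, CXCL10 and CXCL11, ligands of the receptor CXCR3. CXCL10 (ENSG00000169245.5, chromosome 4, 76021117 to 76023497) had 520.2, 498 and 479.7 normalized counts without and 3931, 3384 and 3431 with IFN-gamma, and CXCL11 had 47, 65.9 and 69.4 and 428, 312 and 310.1. CXCL9 was at 0 reads in libraries 1, 2 and 3 and had 85.4, 45.1 and 91.6 in 7, 8 and 9, at least 87.2-fold higher against a floor of 3 reads over the group. None of the 3 genes overlapped between groups (log2 2.84 ± 0.593 SE for CXCL10 and 2.51 ± 0.418 SE for CXCL11, limma adjusted p = 0.00524 and 0.00113), and CXCL10 and CXCL11 lie within ART3 on the other strand. CCL2, a monocyte attractant, rose from 1.39 ± 1.51 to 21.1 ± 4.62 (log2 3.41, adjusted p = 0.00622).

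Cytokine and cytokine receptor genes rose in 8 of 13 tested cases, with 0 falls and a median of 0.44, and with 5 rises without library 2, 7 or 9. CSF1, the macrophage growth factor (ENSG00000184371.13, chromosome 1, 109910242 to 109930992), had 318, 295 and 307 normalized counts without and 1266, 1168 and 1248 with IFN-gamma (log2 2.00 ± 0.0814 SE, limma adjusted p = 3.2e-10). The receptor chain gene IL15RA rose from 309.9 ± 22 to 886 ± 67.3 (log2 1.51) and IL18BP, which traps interleukin 18, from 336 ± 41.9 to 975 ± 54.9 (log2 1.54). All 3 separated fully between the groups. TNFSF10, the death ligand TRAIL, had 55.4, 32 and 47 and 209, 228 and 219.8 (log2 2.30 ± 0.669 SE, adjusted p = 0.0299), a call lost without library 1, 2, 7, 8 or 9 and with a pseudocount of 0.5. With the 6 vector libraries alone the call was kept.

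Interferon genes themselves were transcribed in vector cells without IFN-gamma. IFNB1 (ENSG00000171855.6, chromosome 9, 21077105 to 21077963), interferon beta, had 561, 557 and 495 normalized counts without and 951, 833 and 908 with IFN-gamma, and IFNL1, interferon lambda 1, had 137, 133 and 116 and 364, 279 and 271. All libraries with IFN-gamma were higher, and limma called both (log2 0.74 ± 0.232 SE and 1.23 ± 0.324 SE, adjusted p = 0.0423 and 0.0187). The calls on both were lost without any 1 of the 6 libraries, with adjusted p from 0.0747 to 0.117 for IFNB1 and from 0.0512 to 0.0928 for IFNL1. Both were kept with the 6 vector libraries alone, and that on IFNB1 was lost with no filter (limma adjusted p = 0.0666). IFNL2 went from 25.8 ± 10.1 to 75.3 ± 3.97 (log2 1.57, adjusted p = 0.106), and it was called with the 6 vector libraries alone (0.00865), with edgeR (0.0177), with DESeq2 (0.00109) and with a pseudocount of 5 (0.00907). IFNL3 went from 25.1 ± 4.31 to 36.5 ± 7.85 (log2 0.51, adjusted p = 0.661), but these near-identical genes may share reads. IFNK and IFNG had 0 reads in the 6 libraries, and IFNA1, IFNE and IFNW1 at most 3 in a group.

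Genes known as targets of type I interferon, the alpha and beta family, rose far more often than they fell. Of 45 tested, 26 rose, 2 fell and 17 did not pass, with a median of 0.76. Over all tested genes 7.32% were called higher and 9.79% lower. The tripartite motif gene TRIM22 (ENSG00000132274.15, chromosome 11, 5689689 to 5737089), an antiviral ubiquitin ligase, had 557, 570.3 and 475 normalized counts without and 6282, 5582 and 5865 with IFN-gamma (log2 3.47 ± 0.123 SE, limma adjusted p = 7.8e-11). XAF1, a promoter of cell death, went from 176, 145 and 155 to 1778, 1669 and 1559 (log2 3.39) and SAMD9L, an antiviral growth suppressor, from 50.6, 29.96 and 32.9 to 476, 379.7 and 328 (log2 3.37). All 3 separated fully, and TRIM22 lies within TRIM5 on the other strand. PARP14, an ADP-ribosyltransferase gene, was listed at 0 in libraries 1, 2 and 3 and had 81.3, 86.5 and 73.3 with IFN-gamma, at least 94.6-fold higher against a floor of 3 reads over the group.

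IFIT1 (ENSG00000185745.9, chromosome 10, 89392546 to 89406486) went the other way, with 45004, 36591 and 31841 normalized counts in libraries 1, 2 and 3 and 24602, 22525 and 21731 in 7, 8 and 9. The lowest library without IFN-gamma was above the highest with it (log2 -0.71 ± 0.177 SE, limma adjusted p = 0.0144), but the call was lost without library 1 (adjusted p = 0.0695) or 9 (0.0569), and IFIT1 lies within LIPA on the other strand. HERC6, a ubiquitin ligase family gene chosen after its values were seen, fell from 1153 ± 130.3 to 729.5 ± 40.1 (log2 -0.65, adjusted p = 0.00036). ISG15, the ubiquitin-like modifier, had 3943, 4097 and 4657 and 4599.8, 4499 and 4328, and the groups overlapped (log2 0.08 ± 0.128 SE, adjusted p = 0.7). MX1, an antiviral GTPase, was low and overlapping at 50.6, 37 and 35.9 and 42.2, 36.3 and 44. OAS1, which senses double-stranded RNA, had 1488, 1336 and 1276 and 4376, 3869 and 3843, with no overlap. It was not called by limma over all 12 libraries (log2 1.56 ± 0.583 SE, adjusted p = 0.0821) but was with the 6 vector libraries alone (4.16e-07), with edgeR (5.64e-06), with DESeq2 (1.95e-17) and with a pseudocount of 5 (0.00214).

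In A197-270 cells 44 of the 45 genes rose, with a median of 3.95. Over all tested genes the A197-270 arm had 588 rises (4.19%) and 422 falls (3%). The difference between the responses was called as larger in A197-270 cells for 41 of the 45 genes, where 115 of all tested genes (0.819%) had such a call, and as larger in vector cells for none of the 45, against 11 of all genes (0.0783%). Larger in A197-270 cells means here only that the A197-270 log2 response minus the vector one was positive. Of those 115 genes, 68 were called higher in vector cells, 13 were called lower there and 34 were not called. IFIT1 rose in A197-270 cells from 1014 ± 322 to 15917 ± 2019.8 (difference of log2 responses 4.72 ± 0.251 SE, limma adjusted p = 1.2e-08) and ISG15 from 142 ± 34.1 to 1539 ± 164 (3.37 ± 0.181 SE, 1.28e-08). Their starting levels in vector cells, 37812 ± 6666 and 4232 ± 376, were above the levels that A197-270 cells reached with IFN-gamma. With IFN-gamma present, 43 of the 45 genes had a higher mean in vector than in A197-270 cells, against 7139 of the 14049 tested genes.

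**Figure D4:**
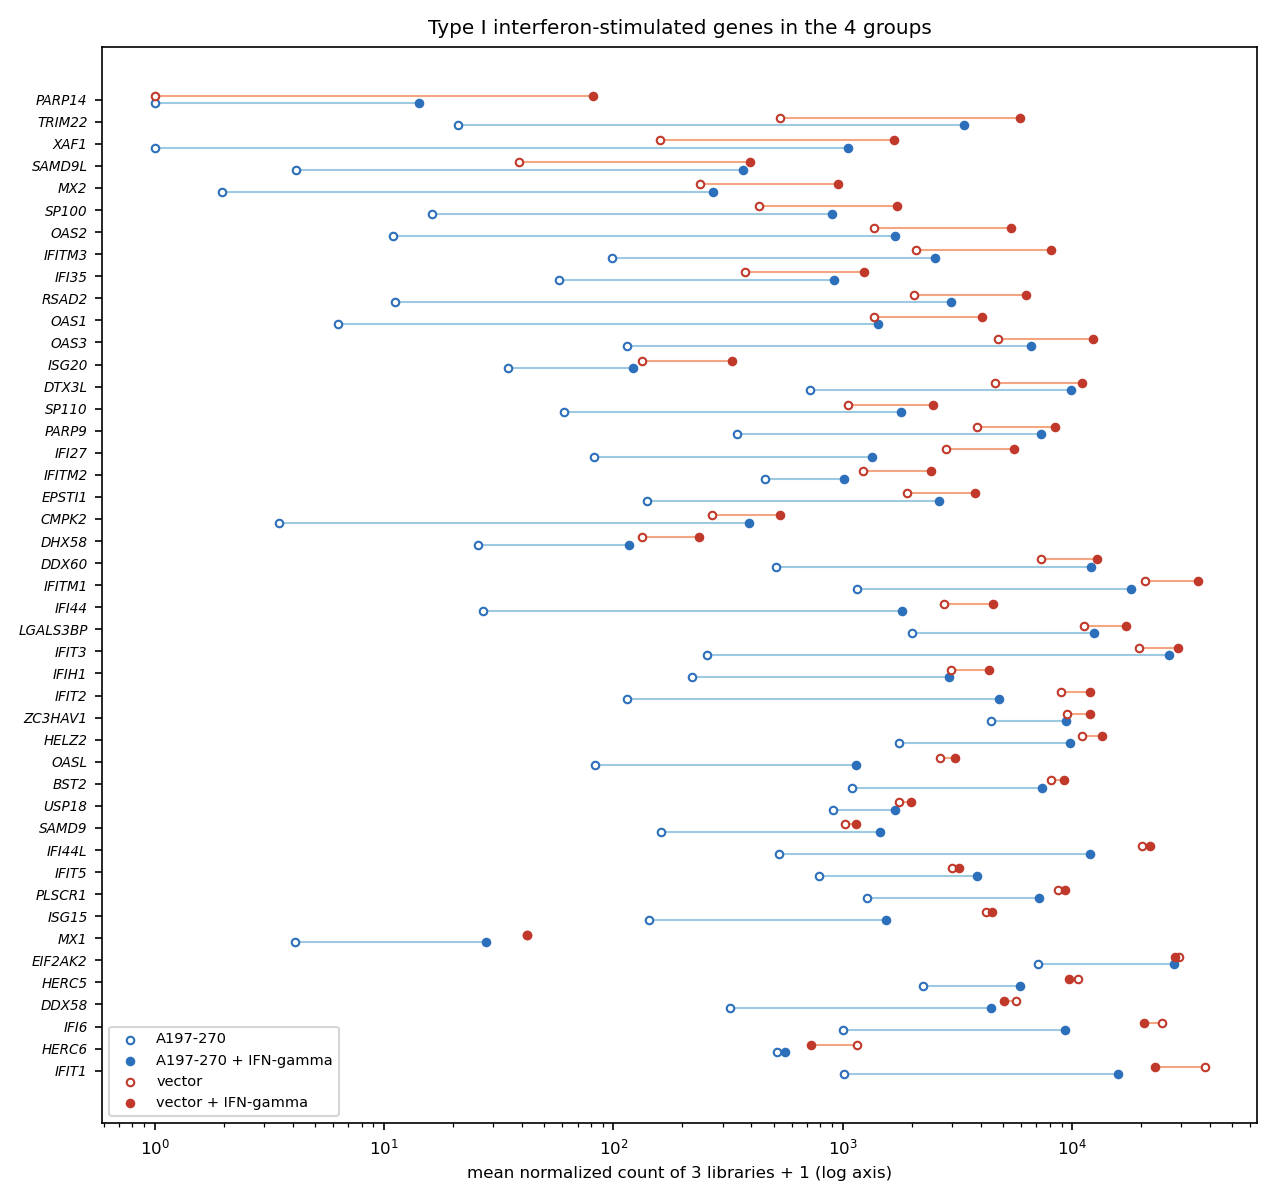
Mean normalized count + 1 (log axis, n = 3 libraries) of the 45 tested type I interferon-stimulated genes in vector cells (red) and A197-270 cells (blue), open without and filled with IFN-gamma, lines joining both. The red line of ISG15 runs from 4232 to 4476 normalized counts and its blue line from 142 to 1539, and 43 of the 45 filled red points lie to the right of the filled blue ones. Of all 14049 tested genes, 7139 had the higher mean in vector cells with IFN-gamma.

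Sensors of foreign nucleic acid rose in 4 of 10 tested cases, with 0 falls and a median of 0.25. IFI16, a sensor of DNA (ENSG00000163565.18, chromosome 1, 158999968 to 159055155), had 22.9, 12 and 21.7 normalized counts without and 399, 356 and 328 with IFN-gamma (log2 4.23 ± 0.299 SE, limma adjusted p = 2.48e-07), with a wide gap between the groups. TLR3, the endosomal receptor of double-stranded RNA, rose from 55.6 ± 13.9 to 181 ± 19.1 (log2 1.71), DHX58, a regulator of RNA sensing, by 0.82 (lost without library 3 or 7) and IFIH1, the sensor MDA5, by 0.54 on the log2 scale. AIM2, an inflammasome DNA sensor, was untested with 0 reads without and 18 with IFN-gamma, at least 7.95-fold higher on a floor of 3 reads over the group.

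Of 18 genes of ubiquitin-like conjugation and TRIM proteins 10 rose and 0 fell, with a median of 0.54. Besides UBD and TRIM22, UBA7, the activating enzyme of ISG15 (ENSG00000182179.12, chromosome 3, 49805207 to 49813946), had 75.9, 74.9 and 78.8 normalized counts without and 926, 843 and 852 with IFN-gamma. The groups were far apart (log2 3.50 ± 0.134 SE, limma adjusted p = 1.63e-10). TRIM56, a ubiquitin ligase gene of antiviral signalling, rose from 1454 ± 103 to 3336 ± 222 (log2 1.20).

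Of 11 tested components of complement, the plasma cascade that marks and lyses cells, 7 rose and 0 fell, with a median of 0.75. C2, the protease of the classical pathway (ENSG00000166278.14, chromosome 6, 31897785 to 31945672), had 238, 259 and 269 normalized counts without and 1618, 1328 and 1586 with IFN-gamma (log2 2.56 ± 0.0921 SE, limma adjusted p = 9.39e-11). CFB, its counterpart in the alternative pathway, had 6.02, 4 and 20.6 and 358, 114 and 343, with library 8 well below 7 and 9 yet above all without (log2 4.73 ± 0.599 SE, adjusted p = 0.000137). C4A and C4B, near-identical copies whose reads cannot be told apart with certainty, rose from 2.16 ± 3.73 to 63.6 ± 22.4 and from 2.76 ± 2.65 to 68 ± 7.21 (log2 4.99 and 4.55). The annotation gives C2 and CFB an overlap of 23 bases and puts nearly all of CFB within AL645922.1 on the same strand. C6, C7 and C9, genes of the lytic pore chosen after their values were seen, had 0 reads, and C3 (0.12) and C5 (-0.18) were not called.

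Of 7 tested complement regulators 3 rose and 0 fell, with a median of 0.05, and the soluble SERPING1 and CFI were among those that rose. SERPING1, the C1 inhibitor (ENSG00000149131.15, chromosome 11, 57597387 to 57614853), had 1094, 1012 and 1005 normalized counts without and 11425, 11742 and 10922 with IFN-gamma. It rose 11-fold with no overlap (log2 3.45 ± 0.0631 SE, limma adjusted p = 3.83e-14), and CFI, factor I, rose by a log2 of 1.39. CD46 (0.05), CD55 (-0.07), CD59 (0.02) and CLU (-0.07) were not called and were chosen after their values were seen.

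Surface molecules that T cells read rose in 8 of 13 tested cases, with 0 falls and a median of 0.53. CD274 (ENSG00000120217.13, chromosome 9, 5450503 to 5470566), the checkpoint ligand PD-L1, had 43.3, 58.9 and 48.2 normalized counts without and 438, 521 and 515 with IFN-gamma. These groups stood apart by a factor of 9.68 (log2 3.27 ± 0.16 SE, limma adjusted p = 2.78e-09), and the response in A197-270 cells differed from it by 0.13 ± 0.226 SE (adjusted p = 0.858). CEACAM1, an inhibitory adhesion molecule, had 7.22, 3 and 2.94 and 68.9, 73.9 and 78.1 (log2 3.88), TNFRSF14, the receptor HVEM, 14.4, 7.99 and 11.8 and 44.2, 67.7 and 62.3 (log2 2.26), and the adhesion gene ICAM1 57.8, 31 and 29.4 and 217, 127 and 204 (log2 2.21). None of these groups overlapped. VCAM1, another adhesion gene, was untested, with 3 reads without and 40 with IFN-gamma, a ratio of normalized counts of 18.2 (95% interval 5.79 to 91.9, counting error only).

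In tryptophan and related metabolism 5 of 10 tested genes rose and 0 fell, with a median of 0.24. After IDO1 came WARS, the tryptophanyl-tRNA synthetase (ENSG00000140105.17, chromosome 14, 100333788 to 100376805), with 4693, 4492 and 4279 normalized counts without and 43295, 43163 and 41942 with IFN-gamma. Its 9.54-fold rise had the smallest adjusted p of all tested genes (log2 3.25 ± 0.0426 SE, limma adjusted p = 1.07e-15), and A197-270 cells had a log2 of 3.25 (difference -0.01 ± 0.0603 SE). NOS2, the inducible nitric oxide synthase, rose from 189 ± 19.96 to 284 ± 52.1 (log2 0.57, adjusted p = 0.0331, lost without library 1, 3, 8 or 9), and LAP3, an aminopeptidase, by a log2 of 0.20 (lost without 2, 3, 8 or 9). The list count was 3 without library 1, 2 or 3 and 2 without 8 or 9.

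Death receptor, caspase and other cell death genes rose in 6 of 16 tested cases, with 0 falls and a median of 0.13. Next to XAF1 and TNFSF10 they held GSDMB, a gasdermin, at 395, 438 and 525 normalized counts without and 759, 773 and 880.3 with IFN-gamma (log2 0.83, limma adjusted p = 0.00114), and CASP10, an initiator caspase, at 364 ± 13.1 and 542 ± 33.7 (log2 0.57). Neither overlapped between groups. CASP1, the inflammasome caspase, and ZBP1 had 0 reads, and both were chosen after their values were seen.

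Genes of other stress and signalling programmes moved by less. Over all tested genes 7.32% were called higher and 9.79% lower. Counts of this and the later lists are to be read beside those shares. In the NF-kappaB list 9 of 23 rose and 1 fell, with a median of 0.18 and with 4 rises without library 2 or 9. ICAM1 led it, followed by TRAF1 (log2 0.56), an adaptor of TNF receptors, IER3 (0.45) and RELB (0.43), an NF-kappaB subunit. The TRAF1 call was lost without library 1, 2 or 8 (log2 0.44 to 0.53) and the RELB call without 2, 7 or 9 (0.39 to 0.40), and TNIP1 (-0.16, lost without library 8 or 9) was the gene that fell. Of 16 immediate-early genes 6 rose and 1 fell, with a median of 0.11: FOS (0.44), JUNB (0.37) and NR4A1 (0.35) rose, and JUN fell from 56164 ± 1937 to 44796 ± 1439 normalized counts (log2 -0.33, limma adjusted p = 0.000137). The FOS call was lost without library 1, 2, 7, 8 or 9, the JUNB call without 1 or 2 and the JUN call under quantile normalization, and the count of rises was 2 or 3 without library 1, 2, 8 or 9. FOS was also lost with the 6 vector libraries alone (limma adjusted p = 0.0926), with edgeR (0.0571), with DESeq2 (0.0675), with no filter and under quantile normalization. Of 24 ATF4 targets, genes of amino acid shortage, 8 rose and 1 fell, with a median of 0.11 and 3 to 5 rises without library 1, 2, 7, 8 or 9. SHMT2 (-0.22), of serine metabolism, was the gene that fell, and like TNIP1 it was chosen after its values were seen. NUPR1, a stress cofactor, had 261, 287 and 301 and 626, 607 and 505 (log2 1.03 ± 0.107 SE, adjusted p = 1.95e-05), without overlap, and DDIT3, the factor CHOP, rose by a log2 of 0.65 and CHAC1, which degrades glutathione, by 0.64.

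Few genes fell by much. Of the 5 called and at least 2-fold lower, AP000295.1 (log2 -4.20), which covers IFNAR2, and TMEM132B (log2 -2.64) were outside the rule for naming and were chosen after their values were seen. Of the 12 largest falls by the same rule, C15orf38-AP3S2 (log2 -1.68) and NME2 (-1.11) lie in read-through loci and PCDHGA11 (-1.10) in a cluster of overlapping transcripts, so their values are uncertain. ZNF778, a zinc finger gene (ENSG00000170100.13, chromosome 16, 89217703 to 89237071), had 663, 702 and 691 normalized counts without and 366, 315 and 393 with IFN-gamma, and INHBA, the activin A subunit (ENSG00000122641.10, chromosome 7, 41667168 to 41705834), 713, 733 and 767 and 405, 415 and 431. Both fell without overlap (log2 -0.94 ± 0.0802 SE and -0.82 ± 0.067 SE, limma adjusted p = 2.18e-06 and 1.34e-06). PCK1, the enzyme that commits carbon to glucose synthesis, fell from 3428 ± 148 to 2079 ± 128 (log2 -0.72 ± 0.055 SE, adjusted p = 6.03e-07). The sulfatase activator gene SUMF1 (-0.73), ZNF879 (-0.86), JAKMIP1 (-0.75), ETFBKMT (-0.79), PIP5KL1 (-0.71) and IFIT1 made up the rest. The calls on ETFBKMT and PIP5KL1 were lost with the 6 vector libraries alone (limma adjusted p = 0.0796 and 0.0899), the first also without library 1, 2, 7 or 9 and the second without 1, 2, 3, 8 or 9. JAKMIP1 was lost without 1, 2 or 8 and ZNF879 without 1. Nearly all of JAKMIP1 (174353 of 174389 bases) overlaps C4orf50 on the same strand, so its value is uncertain as well.

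Of 26 proliferation genes 7 fell and 1 rose, with a median of -0.08, and under equal totals 3 fell and 2 rose. CCNB1, the mitotic cyclin B1, fell from 5923 ± 327 to 4703 ± 18.6 normalized counts (log2 -0.33 ± 0.0426 SE, limma adjusted p = 0.000155), PLK1, a mitotic kinase, by a log2 of -0.28 and BUB1, a spindle checkpoint kinase, by -0.18. CCND1, cyclin D1, was the gene that rose, from 2060.2, 2072 and 2037 to 2746, 2821 and 2884 (log2 0.45, adjusted p = 1.38e-06). Falls numbered 3 without library 1, 2 or 7. Of 12 genes of cell cycle inhibitors and MYC, MYC itself fell, with 2846, 2340.1 and 2059 and 1937, 1626 and 1753 (log2 -0.44 ± 0.0905 SE, adjusted p = 0.00492), and MXD1, its antagonist, rose by a log2 of 0.36, while the list median was 0.06. The MYC groups were close, with 2059 as the lowest without and 1937 as the highest with IFN-gamma. Of 20 p53 targets 1 rose (SESN2, 0.24, lost without library 1, 2 or 9) and 1 fell (CCNG1, -0.30). Such counts do not set the p53 list apart from all tested genes, of which 7.32% were called higher and 9.79% lower.

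Of 21 hypoxia and glycolysis genes 6 fell and 2 rose, with a median of -0.08, but 4 rose and 2 fell under quantile normalization. NDRG1, a hypoxia-induced gene, fell from 12610.4 ± 207 to 9347 ± 348 normalized counts (log2 -0.43, limma adjusted p = 2.14e-05), and the glycolytic genes LDHA and ENO1 had log2 values of -0.25 and -0.25, calls lost under quantile normalization. VEGFA rose by a log2 of 0.23, a call lost without library 1, 2, 7, 8 or 9, as that on LDHA was without 2, 3 or 7, and SLC2A3, a glucose transporter gene chosen after its values were seen, rose by 0.21. Of 13 NRF2 targets 3 fell, among them TALDO1 (-0.29) and PGD (-0.12, lost without library 1, 2, 7 or 9) of the pentose phosphate pathway, and GCLM of glutathione synthesis rose (0.34), but only 1 fell under equal totals. Of 19 cholesterol synthesis genes none was called by limma (INSIG1 0.06, SC5D -0.07). None of 13 mitochondrially encoded genes (MT-ND4 -0.05, MT-CO1 0.11) and none of 11 tested histone genes (HIST2H2BE 0.19, HIST1H1C 0.10) was called either, though HIST2H2BE was without library 7 (adjusted p = 0.0412). At an unadjusted p under 0.05, 1 cholesterol gene was higher and 4 lower, 2 mitochondrial genes were higher and 0 histone genes passed. Of the 3 lists together edgeR called 0 genes and DESeq2 called 1, a cholesterol gene, higher.

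Of 22 cytosolic chaperone genes 2 rose and 5 fell, with a median of -0.0041, against 5 and 4 under equal totals. CRYAB, a small heat shock protein gene, had 129, 227 and 247 normalized counts without and 236, 439.9 and 322 with IFN-gamma, overlapping ranges (log2 0.73, limma adjusted p = 0.0342), and DNAJB1 (log2 0.28) overlapped too. The CRYAB call was lost without library 1, 8 or 9 and the DNAJB1 call without 1, 2, 8 or 9. HSPD1 (-0.19) and HSPE1 (-0.19), partners of mitochondrial folding that share a locus, fell, although HSPD1 changed sign under quantile normalization and HSPE1 was lost without library 1 or 7. In the ER unfolded protein response 1 of 18 genes rose and 3 fell, with a median of -0.06, and under equal totals 2 rose and 0 fell. EDEM1 rose (0.26), and HYOU1 (-0.16), ATF6 (-0.16) and DNAJB11 (-0.14) fell, and none of the 3 falls was kept without library 9. Of 26 autophagy genes 3 rose and 0 fell, the receptors OPTN (0.47) and CALCOCO2 (0.26) and GABARAPL1 (0.20, lost without library 1, 2, 8 or 9). That count of rises is near the share of all tested genes called higher, 7.32%.

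Of 10 genes typical of HEK293 cells 3 fell and 0 rose, with a median of 0.01. The neurofilament genes NEFL and NEFM went from 3482, 3299.9 and 2871 to 2157, 2176 and 2095 and from 14605, 14481 and 14336 to 9581, 10624 and 10306 normalized counts. The ranges did not overlap (log2 -0.58 ± 0.0647 SE and -0.51 ± 0.0514 SE, limma adjusted p = 3.77e-05 and 1.43e-05). VIM, vimentin, had a log2 of -0.15 (adjusted p = 0.0223), which changed sign under quantile normalization and was lost without library 2, 3, 7 or 9.

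**Figure D5:**
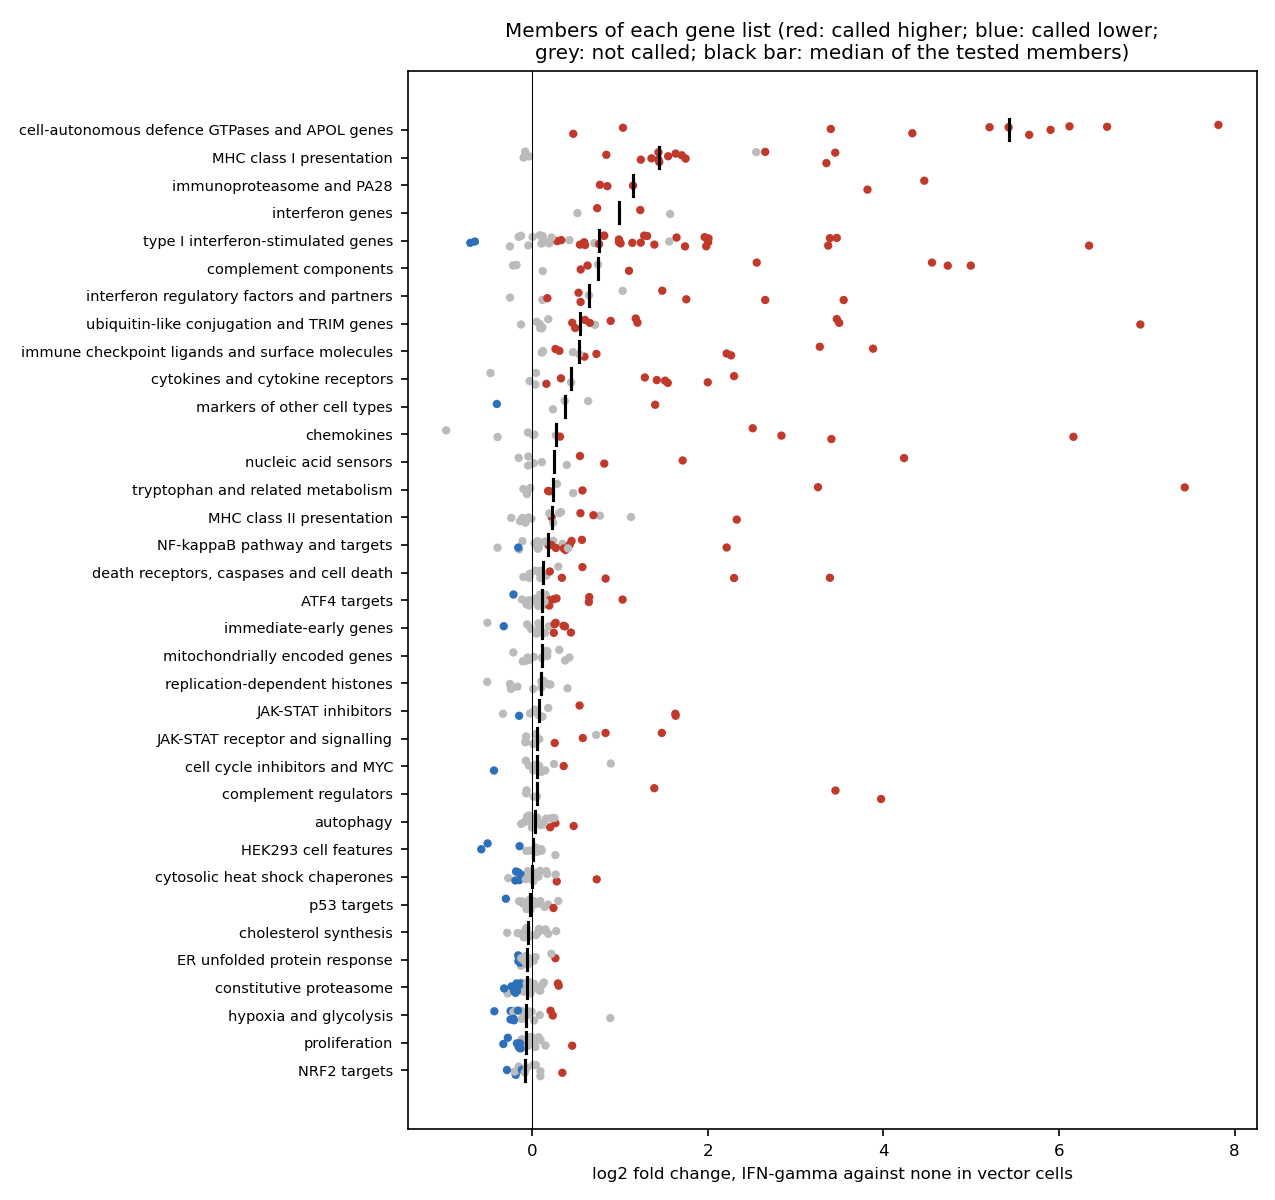
Log2 fold change with IFN-gamma in vector cells (x axis) for the tested members of each gene list, 1 point per gene, red called higher, blue called lower, grey not called, black bars at list medians. The defence GTPase and APOL list has a median of 5.43, and the lists of stress, metabolism and proliferation genes lie around 0.

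The response was next set beside that of A197-270 cells gene by gene. Both responses enter the test of their difference, which limma called for 126 of 14049 genes (0.897%). GBP1 rose by a log2 of 5.90 in vector and 8.39 in A197-270 cells (difference 2.49 ± 0.186 SE, limma adjusted p = 5.86e-07), from starting means of 169.7 and 22.8 to final ones of 10193 and 7855 normalized counts. CXCL10 had log2 responses of 2.84 and 7.31 (difference 4.47 ± 0.839 SE, adjusted p = 0.0145) and reached 3582 ± 303 in vector against 719 ± 74.1 in A197-270 cells. SERPING1 had log2 responses of 3.45 and 3.84, a difference not called by limma (adjusted p = 0.0654) but called with DESeq2 (0.00303) and by limma without library 3 (0.0482), 6 (0.0470) or 12 (0.0100). SOCS3 (1.63 and 1.5, 0.827), IRF8 (1.48 and 1.36, 0.637) and CSF1 (2.00 and 2.14, 0.646) did not differ past the threshold. The labels name no batch of libraries.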

How the data were processed

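RNA-seq of 12 libraries from HEK293 cells was analysed, 3 in each of 4 groups. Tools named per the submitters' processing notes, without roles, are DESeq2 1.22.1, StringTie 1.3.3b and HISAT2 2.1.0, with hg38 as build. The annotation and the use of strand in counting are not given in the sources used here. The deposited table holds a normalized signal per gene, counts divided by 1 factor per library. Whole reads were recovered from it within a tolerance of 0.001 for 100% of values, so the count tests edgeR 4.0.16 and DESeq2 1.42.0 could serve as alternatives. Totals were 31417431 to 68558742 reads in the 6 vector libraries, and gene positions came from GENCODE 29, which matched 19804 of 19836 IDs.

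The main test was limma 3.58.1 with a trend (R 4.3.3) on log2(value + 1) of genes with a mean of at least 10, with 4 group means over 12 libraries and Benjamini-Hochberg adjustment over 14049 genes. The 12 libraries share 1 estimate of the spread. The members and the 35 lists were chosen with earlier results of these data known. Genes were named from a set of 36, from the 12 largest rises and 12 largest falls (called, mean of at least 50, no overlap, clone-based names left out), and from up to 4 called members of each list with the largest change, or the 2 highest where none was called. Every member of the signalling, inhibitor, IRF, immunoproteasome and interferon lists could also be named. Replicates within these groups differed beyond sampling noise (chi-square per degree of freedom 5.72 to 16.9). The fits were tested on simulated data. A few genes are not reported here.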

Additional observations from a re-analysis of the deposited data

Results flagged for a closer look

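The response to IFN-gamma differed between A197-270 and vector cells by a test of the difference itself for many named genes, among them 41 of 45 tested type I interferon-stimulated genes. Values are given for 13 genes of the set of 36 from which names were first taken, each as the A197-270 response minus the vector response on the log2 scale, from limma over 12 libraries. These 13 genes were picked because their responses differed, and all 13 differences were positive. The largest of them were those of the antiviral genes OAS1 (6.86 ± 0.825 SE, adjusted p = 0.00016), IFIT1 (4.72) and ISG15 (3.37) and of the chemokine gene CXCL10 (4.47 ± 0.839 SE, adjusted p = 0.0145), whose call was lost with a pseudocount of 0.5 (adjusted p = 0.0520). Among signalling genes IRF9 was at 2.08 and STAT2 at 1.04. GBP1 stood at 2.49, IFNB1 at 2.08, PSMB9 at 1.82, NLRC5 at 1.49, TAP1 at 1.41 and B2M at 1.07. IRF1 had the smallest of these differences, 0.54 ± 0.0853 SE (adjusted p = 0.00278). Other genes of the 36 were called only in alternative fits. With a pseudocount of 5, CXCL9 (-2.54, limma adjusted p = 0.0298) and IDO1 (-1.66, 0.0343) had the larger response in vector cells. GBP5, CXCL11, MX1, IFNL1, APOL3 and SERPING1 had it in A197-270 cells in 1 or more alternatives.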

How the results depend on the processing

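The count of genes at least 2-fold higher (131) stayed between 117 and 140 when 1 of the 6 vector libraries was left out. Counts of small changes moved more. Leaving out 1 library gave 592 to 1157 higher and 801 to 1388 lower genes, with 606 and 855 without library 1, 627 and 801 without 2, and 592 and 819 without 9. It gave 4 to 15 genes at least 2-fold lower, with 9 without library 3, 15 without 7, 12 without 8 and 13 without 9. Equal totals gave 830 lower genes. Genes at least 2-fold lower numbered 26 with no filter, 3 with a mean of at least 50 and 9 under quantile normalization. For the difference between responses, split by its sign alone, DESeq2 called 221 genes larger in A197-270 and 62 larger in vector cells (283 in all). Equal totals gave 23 larger in vector cells. Leaving out 1 of the 12 libraries gave 103 to 229 calls, 96 to 151 larger in A197-270 and 6 to 78 larger in vector cells. The extremes came without vector library 3 (151 and 78), and without A197-270 library 12 the vector count was 29. HSPD1 (0.0060) and VIM (0.012) reversed their log2 sign under quantile normalization. The cause was not tested in any of these cases. Of 136 named called genes, 11 were lost with only the 6 vector libraries, 4 with edgeR, 0 with TMM scaling or a pseudocount of 5, 7 with equal totals and 11 to 28 when 1 library was left out. The 11 were ETFBKMT, PIP5KL1, CISH, PTPN11, CRYAB, DNAJB1, DNAJB11, CEBPB, FOS, VIM and COL3A1, and the 4 ETFBKMT, PIP5KL1, DNAJB11 and FOS. With DESeq2 PIP5KL1, FOS and COL3A1 were lost. The lists of defence GTPases and APOL genes, of the immunoproteasome and of chemokines kept their counts of rises (11, 5 and 5) in these fits, except with DESeq2. There the first 2 kept theirs and 4 chemokine genes rose. With no filter the defence list had 12 rises, and with a mean of at least 50 the immunoproteasome list had 4. Some lists with small changes gave other counts. Falls among cytosolic chaperones (5) were 1 to 3 without library 1, 2, 3, 7 or 9, and rises (2) were 0 without 1, 8 or 9. Falls among NRF2 targets (3) were 1 without 1, 2 or 7. Hypoxia rises (2) were 0 or 1 without any single library. No paired analysis was possible because the replicate numbers of the groups share no number. With 3 libraries a group, a rise from 0 reads is a lower bound only.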

Other observations

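Ribosomal protein genes, chosen after their values were seen, were lower with IFN-gamma in vector cells. Of 77 tested, limma called 51 lower, 0 higher and 26 not at all, with a median log2 of -0.24 and a range from -0.47 to -0.01, while 9.79% of all tested genes were called lower. At an unadjusted p under 0.05, 62 were lower and 0 higher, edgeR called 49 lower and 0 higher, and DESeq2 58 and 0. Equal totals gave 49 lower, TMM scaling 49, quantile normalization 36, and fits without 1 library 41 to 53. These genes took 7.20% to 7.55% of the reads in libraries 1, 2 and 3 and 5.98% to 6.60% in libraries 7, 8 and 9. In A197-270 cells 3 were called lower and 0 higher, with a median of -0.05, but the difference between both responses was called for 0 of them.

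Of 3 further abundant genes chosen after their values were seen, EEF1A1, a translation elongation factor, had 199534, 204935 and 223112 normalized counts without and 139982, 160401 and 149445 with IFN-gamma (log2 -0.48, limma adjusted p = 0.000438). The actin gene ACTG1 had 62038, 64436 and 60679 and 42025, 41973 and 43815 (log2 -0.55, adjusted p = 3.62e-06), and ACTB fell by a log2 of -0.34. Their ranges did not overlap. Genes called at least 2-fold higher took 0.276% to 0.299% of the reads without IFN-gamma and 1.02% to 1.08% with it. They were picked from these same libraries for that rise, so the direction was given in advance and only the size is described. Type I interferon-stimulated genes took 0.665% to 0.766% and 0.910% to 1.01%.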
